A study of Mus musculus with 2 samples.

Results

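The 10 genes of microtubule-binding proteins described here were the microtubule-associated protein genes Mapt, Map2, Map4, Map1a, Map1b and Map6, and the stathmin genes Stmn1, Stmn2, Stmn3 and Stmn4. They were chosen by symbol, and all 10 were found among the 43346 mouse genes of the deposited gene tables. Total RNA longer than 200 bases came from the forebrain of mouse embryos aged 13.5 days, of strain B6NCrl, with male and female embryos pooled, and 10 ng went into each library. No genotype, treatment or other condition was compared, so the 2 libraries form 1 group, and the labels give them as biological replicates 1 and 2, separate biosamples with a shared donor code. Nothing in the labels says that they came from separate litters, so the spread between them may be technical.

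Microtubules are hollow polymers of tubulin that grow and shrink at their ends. The proteins of the tau family (Mapt, which encodes tau, Map2 and Map4) lie along the polymer and bind it through a row of short repeats near the carboxyl end. Map1a and Map1b encode large precursor proteins that are cut into heavy and light chains, and Map6 encodes the protein first known for keeping microtubules stable in the cold. Stathmins act the other way: they hold free tubulin dimers and favour shrinkage, Stmn1 in the cytosol and Stmn2, Stmn3 and Stmn4 on membranes of neurons. In the developing brain these genes are known for the outgrowth of axons and dendrites, and Stmn1 also for dividing cells.

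A repeat of the microtubule-binding part of Map2 is encoded by an exon of 93 bases that Map2 transcripts can hold or lack. It is shown because its share could be estimated in Map2, beside the matching exon of Map4. Both are coding exons of 31 residues, and as background the common forms of the Map2 protein lack this repeat. They are given 5′ to 3′ on the plus strand (GENCODE M21 transcripts, mm10), with the bases that are the same in both genes in capitals.
Map2, chr1:66431527-66431619: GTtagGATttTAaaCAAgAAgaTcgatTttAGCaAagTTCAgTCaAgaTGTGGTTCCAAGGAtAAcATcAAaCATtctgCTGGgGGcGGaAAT
Map4, chr9:110072613-110072705: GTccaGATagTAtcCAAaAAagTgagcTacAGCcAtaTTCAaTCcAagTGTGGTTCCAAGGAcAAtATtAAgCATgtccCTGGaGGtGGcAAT
Aligned without gaps, the exons shared 59 of 93 bases (63.4%).

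Estimated counts summed to 35378462 in replicate 1 and 36793284 in replicate 2, and the 10 genes took 0.95% and 0.969% of them. Of 21473 protein-coding genes, 60.5% and 59.5% reached 1 TPM (a relative level that is corrected for transcript length) in replicates 1 and 2. The 5 forebrain markers were all present, between 63.9 TPM for Dlx2 and 234 TPM for Dlx1. The 8 neuron markers summed to 2003 and 1918 TPM in replicates 1 and 2, and the 6 markers of apical progenitors to 2353 and 2381 TPM. Markers of astrocytes (7.67 and 6.79 TPM in sum), oligodendrocytes (20.9 and 17.7), microglia (25.0 and 25.8) and endothelium (56.6 and 61.4) were low, with Gfap at 2 counts and at 0. Red blood cell markers summed to 8661 and 7815 TPM, and choroid plexus markers to 437 and 225 TPM, of which Ttr made up most and 2 of 3 reached 1 TPM. Levels are from whole tissue, in which fewer cells of a type and less RNA per cell cannot be told apart.

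With 1 group of 2 libraries there is nothing to test between conditions. The smallest p that an exact two-sided sign test can reach with 2 values is 0.5, and no p-value is given. Errors are SDs of both libraries (n = 2).

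The levels of the 10 genes spanned a 494-fold range. All of them reached 1 TPM in both libraries, and 7 of them reached 100 TPM, a level that 7.42% of protein-coding genes reached. The median over the 10 genes was 264 TPM, beside 3.92 TPM over all protein-coding genes. From the highest level to the lowest the order was Stmn1, Stmn3, Map1b, Stmn2, Map2, Mapt, Stmn4, Map4, Map6 and Map1a. Of the 9 pairs of neighbours in this order, only Mapt and Stmn4 had libraries that overlapped, since Mapt was as low as 223 TPM and Stmn4 as high as 229 TPM.

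**Figure D1:**
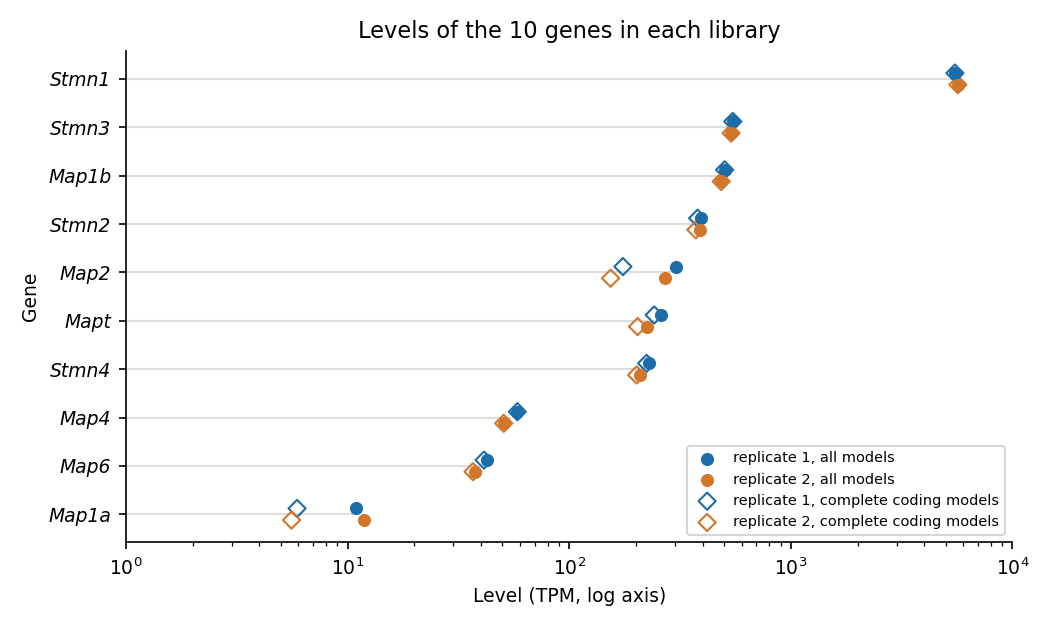
Level of each gene in TPM (log axis) in replicate 1 (blue) and replicate 2 (orange), over all transcript models of the gene (filled circles) and over models with a complete coding sequence (open diamonds). Stmn1 has a mean of 5618 TPM, apart from the rest, and the circles and diamonds separate for Map2 and Map1a.

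Among the stathmins Stmn1 was far the most abundant. Stmn1, which holds tubulin in the cytosol of dividing cells and neurons (chromosome 4, 134468320 to 134473843, plus strand, mm10), had 5529 and 5707 TPM in replicates 1 and 2, a mean of 5618 ± 126 TPM. It ranked 6 among protein-coding genes in each library and gave 83.0% ± 0.625 of all stathmin TPM. A processed pseudogene, Gm11223, matched Stmn1 at 99.8% identity over all 450 of its bases and was listed with 469 and 689 estimated counts, against 117597 and 132298 for Stmn1. Reads that fit both were divided by the authors' estimate, so how the counts split between Stmn1 and this copy is uncertain.

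The 3 membrane-bound stathmins were 10.4-fold to 25.7-fold lower than Stmn1. Stmn3 (chromosome 2, 181306459 to 181314500, minus strand) had 547 and 538 TPM in replicates 1 and 2, a mean of 542 ± 6.81 TPM. Stmn2, a growth cone protein also called SCG10 (chromosome 3, 8509360 to 8561606, plus strand), had 393 and 388 TPM, a mean of 390.4 ± 3.56 TPM. Stmn4 (chromosome 14, 66344296 to 66361680, plus strand) had 229 and 209 TPM, a mean of 219 ± 14.8 TPM. Their ranges did not overlap, and both libraries gave the same order.

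Stmn1 exceeded Stmn3 by 3.37 ± 0.050, Stmn2 by 3.84 ± 0.046 and Stmn4 by 4.68 ± 0.13 on the log2(TPM + 1) scale. In plain ratios of TPM, Stmn1 was 10.4-fold above Stmn3, 14.4-fold above Stmn2 and 25.7-fold above Stmn4. Among the neuronal members, Stmn3 lay 0.47 ± 0.0049 log2 units above Stmn2, and Stmn2 lay 0.83 ± 0.084 above Stmn4. Each of these differences was larger than the spread between the libraries. For comparison, the neuronal tubulin gene Tubb3 had 1116 TPM, below Stmn1 and above the other 3 stathmins.

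Between Map1a and Map1b, nearly all TPM came from Map1b. A further Map1 gene, Map1s, is counted below among other proteins of the microtubule wall. It had 44.7 and 40.0 TPM in replicates 1 and 2, above Map1a. Map1b, known as the member of young, growing neurons (chromosome 13, 99421446 to 99516540, minus strand), had 503 and 485 TPM in replicates 1 and 2, a mean of 494 ± 12.5 TPM. Its transcript of 11852 bases took 131383 and 138195 estimated counts, 0.371% and 0.376% of each library and more than any of the other 9 genes. Map1a, known as the member of mature neurons (chromosome 2, 121289600 to 121310832, plus strand), had 10.9 and 11.8 TPM, a mean of 11.4 ± 0.665 TPM.

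Map1b was 5.32 ± 0.11 log2 units above Map1a, or 43.6-fold in plain TPM. This ratio depended on which Map1a models were counted. A noncoding model of 411 bases, Map1a-204, held 39.4% and 48.8% of the Map1a TPM in replicates 1 and 2 with 29.8 and 43.7 estimated counts, because TPM divides by length. In estimated counts Map1a-201 was the largest model, with 58.0% and 50.9% of the gene. Both models with a complete coding sequence, of 11825 and 10145 bases, together held 5.92 and 5.59 TPM, a mean of 5.76 ± 0.233 TPM. Over complete coding models alone, a choice made after the data were seen, Map1b lay 85.9-fold above Map1a. The last 272 bases of Map1a also overlap Ppip5k1 on the opposite strand, and the use of strand in counting was not given in the sources used here. Neither gene had whole counts. Map1a had 1481.87 and 1518.95 estimated counts in replicates 1 and 2, and Ppip5k1 had 531.13 and 547.05. Some reads of each gene were therefore divided with another feature, and the Map1a level rests in part on that division.

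In the tau family, Map2 and Mapt were close and Map4 was lower. Map2, known for marking dendrites (chromosome 1, 66175273 to 66442583, plus strand), had 303 and 270.5 TPM in replicates 1 and 2, a mean of 287 ± 23.2 TPM. Mapt, known for axons (chromosome 11, 104231390 to 104332090, plus strand), had 259 and 223 TPM, a mean of 241 ± 25.5 TPM. Map4, the member used outside neurons as well (chromosome 9, 109931460 to 110083955, plus strand), had 58.4 and 50.7 TPM, a mean of 54.5 ± 5.47 TPM. Replicate 1 was the higher library for all 3 genes.

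Map2 gave 49.3% ± 0.593 of the family's TPM, Mapt 41.4% ± 0.524 and Map4 9.35% ± 0.0688. Within each library Map2 exceeded Mapt, by 0.25 ± 0.035 on the log2(TPM + 1) scale, and Map4 by 2.38 ± 0.026. The order of Map2 and Mapt turned over when only models with a complete coding sequence were counted: Map2 then had 175 and 154 TPM and Mapt 242 and 204 TPM, a difference of -0.43 log2 units. Such models held 57.2% of Map2 TPM and 92.2% of Mapt TPM. The antisense gene Gm10558 lies inside Map2 on the other strand, with 779 and 872 counts. These counts were whole numbers, as were those of Map2 (24674 and 23718), so no division of reads between the 2 genes shows in the counts. How strand was used in counting was not given.

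Map6 (chromosome 7, 99267447 to 99337137, plus strand) had 42.4 and 37.6 TPM in replicates 1 and 2, a mean of 40 ± 3.39 TPM. It lay 2.81 ± 0.0031 log2 units below Map2. Map4 and Map6 ranked 3062 and 4020 among protein-coding genes by mean TPM, and Map1a ranked 8186.

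The tables hold 69 transcript models of these genes, and 64 of them had the same length in GENCODE M21, from which coding sequences and names were taken. The 5 that differed in length were the single Map1b model and all 4 of Map4, so the structures given for Map4 are those of the later release. Only Stmn3 and Map1b had a single model. The main model of Stmn1, Stmn1-201, held 98.7% ± 0.0531 of the gene's TPM, and that of Stmn2, Stmn2-201, held 96.4% ± 0.374. Across the 10 genes, 21 models held at least 10% of their gene in both libraries.

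**Figure D2:**
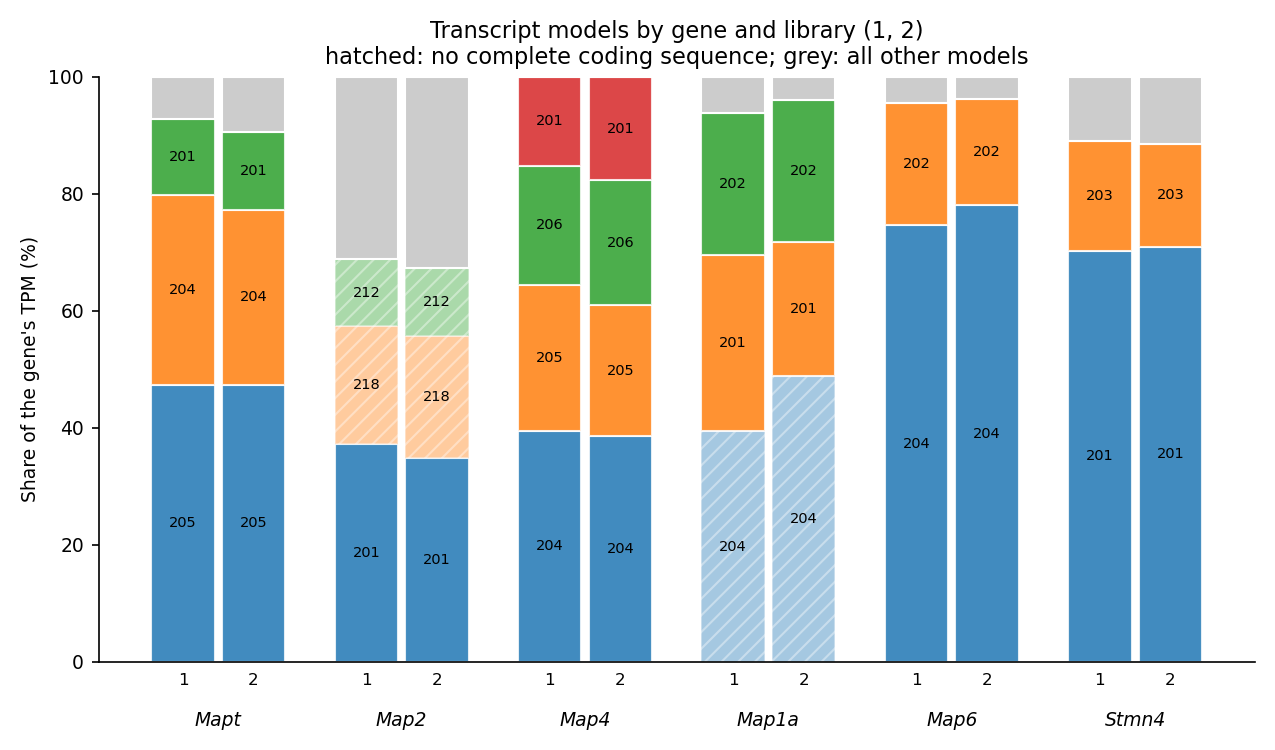
Share of the gene's TPM (percent) held by each transcript model of Mapt, Map2, Map4, Map1a, Map6 and Stmn4, with a bar for each library (1 and 2) and the number of the model in each segment. The widest gap between libraries is in Map1a, where the noncoding model 204 holds 39.4% in replicate 1 and 48.8% in replicate 2.

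Among the 12 models listed for tau, 3 made up most of the TPM. Forms of tau without a listed model could not be seen. Mapt-205 (coding for 390 residues) held 47.3% in replicate 1 and 47.3% in replicate 2, Mapt-204 (372 residues) held 31.3% ± 1.80 (84.4 and 67.0 TPM), and Mapt-201 (430 residues) held 13.0% and 13.2%. In estimated counts, which are not divided by length, Mapt-204 came before Mapt-205 in both libraries. Mapt-204 took 65.3% and 62.9% of the gene's counts, Mapt-205 26.3% and 27.5%, and Mapt-201 6.38% and 6.79%.

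The share of the 93-base repeat exon of Map2 could be estimated, because models with and without it exist. Those that hold it had 4.12 TPM of 175 TPM in replicate 1 and 5.95 TPM of 155 TPM in replicate 2, which is 2.35% and 3.84%, or 3.09% ± 1.05. Of 10 spanning models, 4 hold the exon. In both libraries the models that hold it were a small part of Map2. The share rests on how reads were divided among similar models, and that division varied between libraries. Map2-207, which holds the exon, took 461.58 and 735.92 estimated counts in replicates 1 and 2. Map2-202, which lacks it, took 0.74 and 709.56. For Map4 all 3 spanning models hold the exon, so no share could be measured there. In Mapt no 93-base coding exon was held by some spanning models and lacked by others. A share of such an exon could therefore not be measured for tau either.

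The projection domain of Map2, the long arm that sticks out from the microtubule, is coded mainly by an exon of 3741 bases (chromosome 1, 66412407 to 66416147), followed by exons of 207 and 135 bases. As background, the short form without it is known from the young brain. The model that holds the 3741-base exon, Map2-204 (1828 residues), made up 15.4% and 13.2% of the spanning models in replicates 1 and 2, a mean of 14.3% ± 1.55. The 207-base exon was at 14.4% ± 1.54 and the 135-base exon at 14.3% ± 1.55, and the same model accounts for nearly all of these values. The most abundant Map2 model, Map2-201 (467 residues), lacks all 3 exons and held 37.3% and 34.8% of Map2 TPM. An exon of 246 bases (chromosome 1, 66410574 to 66410819), which Map2-204 lacks, was at 0.309% ± 0.0491 by TPM and 0.0939% by estimated counts.

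A further 20.5% ± 0.576 of Map2 TPM lay on an incomplete model of 546 bases with 106 coding bases, and 11.6% ± 0.182 on Map2-212, which retains an intron. In estimated counts this short model took 2.45% and 2.58% of the gene. Neither has a complete coding sequence, so both are left out of the diamonds in the plot of levels.

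Tau has 2 exons of 87 bases each near its amino end, which code the inserts that give the longer adult forms (chromosome 11, 104287123 to 104287209 and 104289908 to 104289994). Models that hold the first had 14.6% ± 0.563 of spanning TPM, and those that hold the second 14.5% ± 0.451. By estimated counts these shares were lower, 7.19% and 7.18% on average. Nearly all of this TPM lay on Mapt-201. The 759-base exon of big tau, the form of peripheral nerves (chromosome 11, 104298498 to 104299256), was at 0.501% and 0.682%, or 1.23 and 1.42 TPM. An exon of 198 bases further along (104305212 to 104305409) was at 1.86% and 2.72% by TPM, a mean of 2.29%, and at 0.809% by estimated counts.

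An exon of 66 bases in Mapt (chromosome 11, 104294859 to 104294924) was at 99.9% ± 0.112. The only spanning model that lacks this exon, Mapt-208, is incomplete and had 0 and 2.57 estimated counts in replicates 1 and 2. The share of the 66-base exon was therefore hardly measurable. Another optional exon of tau, of 54 bases, is shown because about as much TPM held it as lacked it (chr11:104307881-104307934, plus strand, coding, 18 residues).
Mapt, 54-base exon: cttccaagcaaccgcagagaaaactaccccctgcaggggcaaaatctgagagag
Its share was 50.7% in replicate 1 and 51.9% in replicate 2, a mean of 51.3% ± 0.849. In estimated counts it was 26.7% and 28.1%. The only model that holds it, Mapt-205, is 1527 bases long, whereas Mapt-204, the main model that lacks it, is 5253 bases long. Mapt-201, which also lacks it, is 1362 bases long.

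**Figure D3:**
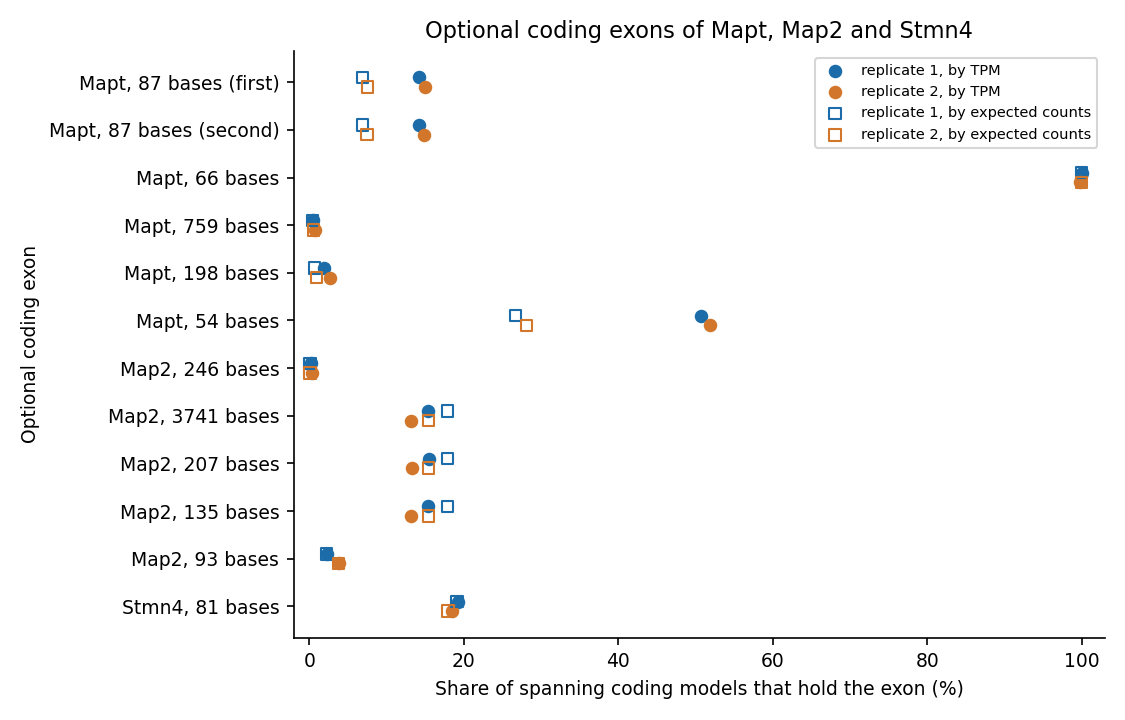
Share (percent) of spanning coding models that hold each optional exon of Mapt, Map2 and Stmn4, by TPM (filled circles) and by estimated counts (open squares), in replicate 1 (blue) and replicate 2 (orange). The 54-base exon of Mapt lies at 51.3% by TPM and 27.4% by counts on average, and the 81-base exon of Stmn4 at 18.9% and 18.5%.

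Stmn4 has an optional exon of 81 bases between its membrane anchor and the tubulin-binding part (chr14:66356269-66356349, plus strand), which adds 27 residues.
Stmn4, 81-base exon: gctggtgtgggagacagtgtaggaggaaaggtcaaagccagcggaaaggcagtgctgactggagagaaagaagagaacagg
Models with it held 19.3% and 18.5% of spanning TPM in replicates 1 and 2, a mean of 18.9% ± 0.565. By estimated counts the share was 18.5%. The models Stmn4-201 (189 residues, without the exon) and Stmn4-203 (216 residues, with it) are 1303 and 1281 bases long, so length weighs little in this comparison. They held 70.6% ± 0.549 and 18.2% ± 0.965 of Stmn4.

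Map6 was carried mainly by Map6-204 (568 residues), at 74.6% and 78.0% of the gene's TPM, with Map6-202 (306 residues) at 20.9% and 18.1% by TPM and at 11.3% and 9.56% by estimated counts. The longest form, Map6-201 (906 residues), known from adult neurons, had 0.8 and 0.66 TPM, or 1.89% and 1.76%. Map6-203 was listed at 0 in both libraries. A further model listed under Map6, at 2.57% and 2.07%, belongs to Gm45591 in the later release. For Map4 the shares were 39.0% ± 0.619 for Map4-204, 23.8% ± 1.85 for Map4-205, 20.8% ± 0.711 for Map4-206 and 16.5% ± 1.76 for Map4-201. By estimated counts Map4-206 took 13.9% and 14.7% and Map4-201 18.3% and 21.4%, which reverses their order. Map4-206 has 297 coding bases in the later release and so encodes a short amino end. An exon of 114 bases in Map4 (chromosome 9, 110071026 to 110071139) was at 50.5% and 51.0% by TPM in replicates 1 and 2. By estimated counts it was at 55.7% and 56.2%. The gene counts of Map4 were not whole (6457.09 and 6092.55), so some of its reads were divided with another feature.

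For these genes replicate 2 was next set against replicate 1. Protein-coding genes with a mean estimated count of 100 or more numbered 11966. Of these, 1.31% lay 1.5-fold or more apart on the TPM + 1 scale, and 0 of the 10 genes did. The log2 ratios, replicate 2 over replicate 1, ran from -0.21 for Mapt to 0.11 for Map1a, within the central 95% of all genes (-0.47 to 0.25). Of the 10 genes 8 were lower in replicate 2, where 76.1% of all genes were lower. The median was -0.094 for the 10 genes and -0.10 for all genes.

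The small ratios had an order. Mapt, Map4 (-0.20), Map6 (-0.17), Map2 (-0.16) and Stmn4 (-0.14) lay below the median of all genes, and Map1b (-0.052), Stmn3 (-0.026), Stmn2 (-0.019), Stmn1 (0.046) and Map1a above it. Choroid plexus markers were also lower in replicate 2, as given above, and their part in these ratios was not tested. With counts scaled by TMM, the trimmed mean of M-values, the median of all genes was 0.0079, and 5 of the 10 genes were lower in replicate 2 against 47.7% of all genes. On this scale Map2, Mapt, Map4, Map6 and Stmn4 were the 5 below 0, from -0.16 for Mapt to -0.018 for Map6. The deposited intervals of these genes lie around the posterior mean TPM, a second deposited estimate, and not always around TPM. For Stmn1 in replicate 1 the interval was 5358 to 5420, below its 5529 TPM. The intervals overlapped between libraries for Stmn2, Stmn3 and Map1a and did not for the other 7 genes. Overlap was not counted over all genes, so nothing particular to these 10 can be read from it. For Map1a the direction depended on the measure. Over complete coding models its log2 ratio of TPM + 1 was -0.070, and with TMM-scaled counts over all models it was 0.034.

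**Figure D4:**
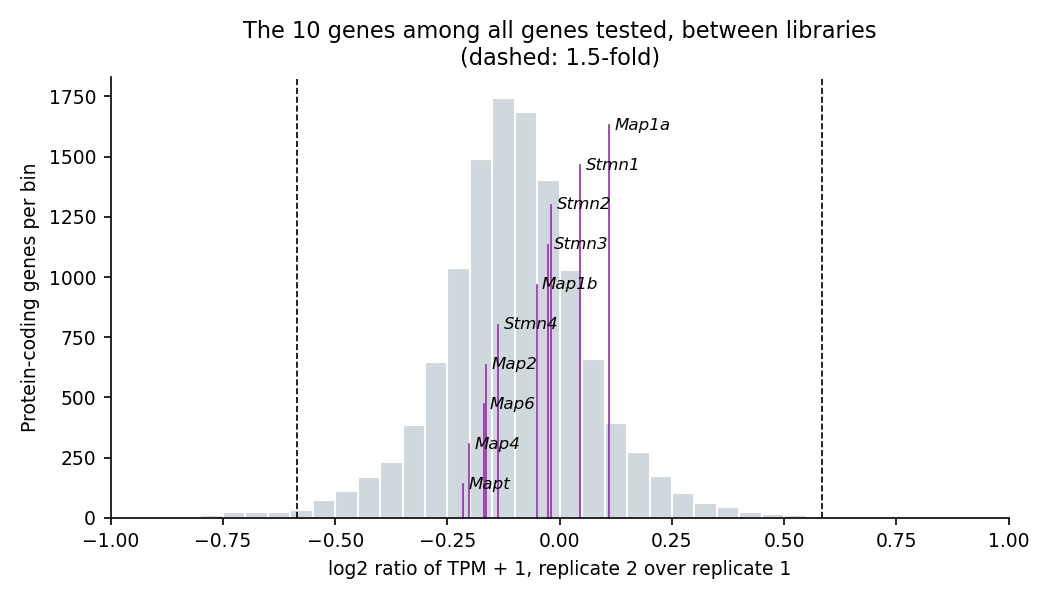
Number of protein-coding genes (bars, vertical axis) by log2 ratio of TPM + 1, replicate 2 over replicate 1 (horizontal axis), with the 10 genes as vertical lines whose height only separates the names. All 10 lie between -0.21 and 0.11, inside the dashed lines at 1.5-fold.

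Other microtubule regulators were set beside these genes, 88 in 7 groups by role. Of the 88, 84 reached 1 TPM in both libraries and 17 reached 100 TPM, and the median of their mean levels was 32.1 TPM. Among all protein-coding genes 60.5% and 59.5% reached 1 TPM in replicates 1 and 2. In both libraries 7.42% of them reached 100 TPM, and their median was 3.92 TPM. Among 19 other proteins of the microtubule wall (17 at 1 TPM, median 31.3 TPM), the migration gene Dcx (164 ± 8.68 TPM) and the midzone gene Prc1 (129 ± 9.8 TPM) were highest and Map7d3 lowest (0.75 ± 0.141 TPM). All 5 genes of light chain 3 and its relatives, small proteins of autophagy of which some were first found with Map1 proteins, were above 100 TPM, from Gabarap (529 ± 33.8 TPM) and Gabarapl2 (390 ± 7.86 TPM) down to Gabarapl1 (107 ± 0.311 TPM).

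All 18 plus-end proteins reached 1 TPM (median 31.4 TPM), with the end-binding gene Mapre1 at 317 ± 2.85 TPM, the spindle gene Tacc3 at 157 ± 3.49 TPM and Clip4 at 2.93 ± 0.481 TPM. Of 13 minus-end, severing and depolymerising proteins 12 reached 1 TPM (median 27.2 TPM, with library medians of 24.5 and 25.1 TPM). The depolymerising kinesin gene Kif2c had 59.1 ± 4.31 TPM and Fignl1 43.8 ± 2.1 TPM. Kif2b was at 0 counts, a result that leaves room for a level of up to 0.0629 and 0.0577 TPM in replicates 1 and 2.

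The 5 collapsin response mediator genes, whose proteins bind tubulin in growing axons, had the highest median of the groups (400.2 TPM). Dpysl2 reached 871 ± 24.5 TPM and Dpysl3 560.1 ± 19.9 TPM, and Dpysl4 was lowest at 99.7 ± 23.2 TPM. Of 16 kinase and kinase-partner genes 15 reached 1 TPM (median 25.7 TPM), led by Prkaca (121 ± 3.46 TPM) and the tau kinase gene Gsk3b (117 ± 4.11 TPM), with Cdk5r2 at 0.84 ± 0.297 TPM. All 12 tubulin-modifying enzyme genes reached 1 TPM (median 48.9 TPM). The tubulin acetylase gene Atat1 had 284 ± 18.9 TPM, Svbp, the partner of the vasohibins that trim tubulin, 177 ± 0.742 TPM, and Agbl4 1.98 ± 0.0283 TPM.

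**Figure D5:**
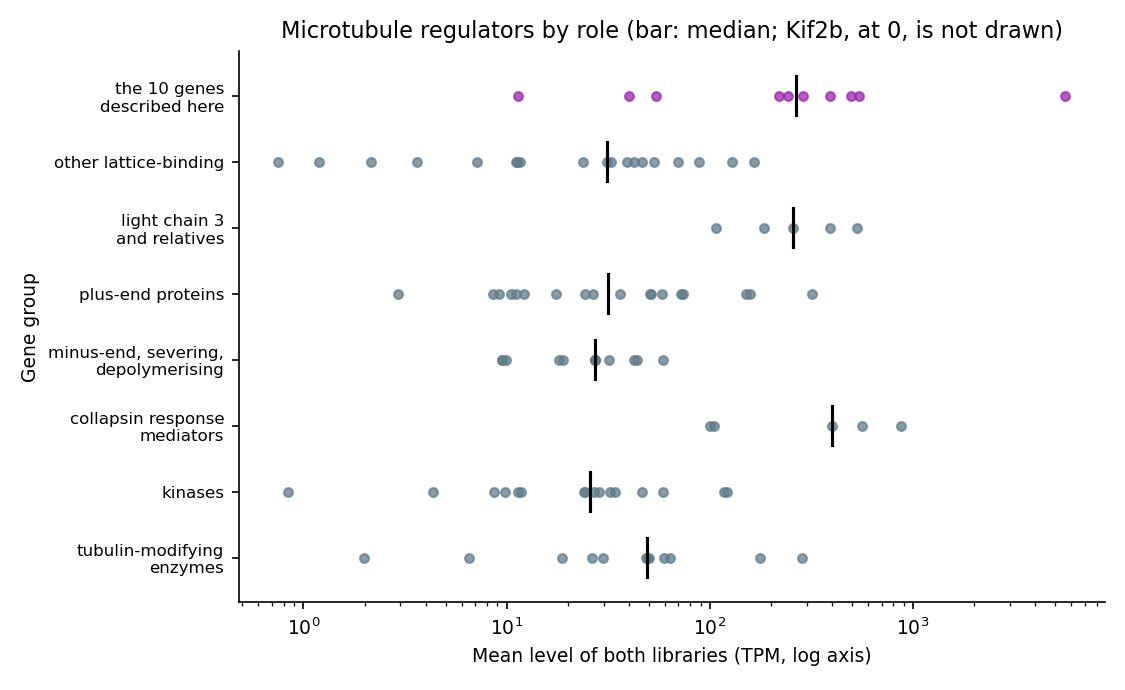
Mean level of both libraries (TPM, log axis) of each gene, by group, with the median of each group as a black bar. The medians of the 10 genes (264 TPM), of light chain 3 and its relatives (256 TPM) and of the collapsin response mediators (400.2 TPM) stand above those of the other 5 groups, which lie between 25.7 and 48.9 TPM.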

How the data were processed

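Total RNA from 2 forebrain libraries was measured. Per the file headers and the descriptions deposited with the files, the authors made a gene table and a transcript table for each library from transcriptome alignments to mm10 with GENCODE M4. The aligner, counter, read length and strand setting were not given in the sources used here. Each expected count is an estimated count deposited by the authors, with shared reads divided between features. The deposited TPM values sum to the same total in each library, spike-ins included. The deposited FPKM values served as an alternative for ranks and differences. A deposited percent column states how much of a gene each transcript holds, and shares recomputed from TPM differed from it by at most 0.0288 percentage points. The deposited bounds around TPM are a signal column of unstated level, used to see overlap. The deposited effective length is the length minus 99 bases, so TPM of short models rests on few counts.

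Symbols, coordinates and models came from GENCODE M21 (42462 of 43346 mouse genes matched by identifier). Where a symbol had several identifiers, the highest mean count was kept. Differences used log2(TPM + 1). An exon's share is the TPM of protein-coding models whose coding sequence holds it over that of models with coding sequence on both sides. Levels are means with SD (n = 2). Libraries were compared over genes with a mean count of at least 100. For scaling, counts were rounded and passed in R 4.3.3 to edgeR 4.0.16 for TMM and to DESeq2 1.42.0, and this step was tested on simulated data. The remaining work was done in Python 3.11.15 with pandas 2.3.3 and with BLAST 2.17.0 (copies at 95% identity over at least 100 bases). A count of 0 allows 3 counts, and floors cover counting error only. The text names all 10 genes, models with at least 10% of their gene in both libraries, and of each group of other regulators the 2 highest genes and the lowest. Tubb3, Gm11223, Ppip5k1, Gm10558, Gm45591, Map2-204, Map6-201, Map6-203 and the exons of 759, 246, 207, 198, 135 and 66 bases were added beyond that rule. Map1s and Mapt-208 were added as well. The genes and lists were chosen with earlier results of these data known. Alternatives were posterior mean TPM, FPKM, estimated counts, other pseudocounts, folds, count minimums, thresholds, scalings and each library alone. Counting only models with a complete coding sequence was added after the data were seen.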

Additional observations from a re-analysis of the deposited data

How the results depend on the processing

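Each of the 10 pairs of genes is written with the gene of higher TPM first. All 10 kept that order in each library under other pseudocounts, posterior mean TPM and FPKM. Counting only complete coding models, added after the data were seen, turned Map2 minus Mapt from 0.25 to -0.43 and left 9 pairs. The number of genes at 100 TPM or more was 7 in every setting tried. The median log2 ratio between libraries of the 10 genes was -0.094 with TPM, 0.0082 with TMM-scaled counts and 0.0098 with DESeq2 size factors, while the median of all genes went from -0.10 with TPM to 0.0079 with TMM. No gene of the 10 passed the fold in any of the 8 alternatives. Over all genes the share past the fold ran from 0.217% with the largest fold tried to 9.10% with the smallest. So few genes passed that nothing particular to these 10 can be read from their count. The share of the 54-base exon of Mapt was 51.3% by TPM and 27.4% by estimated counts, and that of the 3741-base exon of Map2 was 14.3% and 16.7%. By counts the 87-base exons of Mapt went from 14.6% and 14.5% to 7.19% and 7.18%, its 198-base exon from 2.29% to 0.809% and the 246-base exon of Map2 from 0.309% to 0.0939%, and Mapt-204 rather than Mapt-205 was the largest Mapt model. Models at 10% or more of their gene numbered 21 by TPM and 19 by counts. Estimated counts are not divided by length, and models that hold and lack these exons differ in length. With 2 libraries, leaving out each in turn only returns the value of the other, as given above. These values were 2.35% and 3.84% for the 93-base exon of Map2, and 50.7% and 51.9% for the 54-base exon of Mapt. No paired analysis was possible because there is a single group. Depth does not limit the levels of the 10 genes, but the short Map1a model rests on 29.8 and 43.7 counts.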
